A study of Mus musculus with 12 samples.

Results

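The 31 genes described here are mouse genes known as targets of the transcription factor MYC, most of them in ribosome biogenesis. They are Ncl, Npm1, Nolc1, Gnl3, Pa2g4, Ddx21, Nop56, Nop58, Fbl, Rrp9, Dkc1, Polr1a, Polr1b, Polr1c, Utp20, Wdr43, Rrp12, Pes1, Bop1, Wdr12, Nip7, Nop2, Nop16, Ppan, Eif4e, Odc1, Srm, Cad, Nme1, Ldha and Cdk4. They were chosen by symbol, and all 31 were found among the 21751 genes of one expression table and among the 24054 of the other. All 31 also had a mean value of at least 1 in both tables, which was the minimum for testing. None of the 31 passed the test in either knockout.

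The samples were liver tumours of C57BL/6 mice, in which cancer had been started with DEN, a DNA-alkylating carcinogen (25 mg/kg into the peritoneum at week 2 after birth), and driven on by weekly CCl4, a liver toxin (0.5 ml/kg). The mice were killed at 5 months. The 4 groups of 3 libraries came from Miz1fl/fl mice without Cre (floxed Miz1), Miz1fl/fl mice with Alb-Cre (Miz1 knockout), Miz1(POZ)fl/fl mice without Cre and Miz1(POZ)fl/fl mice with Alb-Cre. All groups received both agents and all mice carried a floxed allele. Alb-Cre is directed at hepatocytes, so other cells of the tumour may keep the floxed allele. Recombination in each cell type was not measured. The labels do not say how many mice gave the tumours, so p-values measure only the spread between these libraries.

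MYC dimerises with MAX and binds the E-box CACGTG in promoters, and it raises transcription by RNA polymerases I, II and III. Ribosome biogenesis begins in the nucleolus, where RNA polymerase I transcribes the ribosomal RNA precursor, small nucleolar ribonucleoproteins (snoRNPs) modify it, and assembly factors cut and fold it into the small and large subunits. Miz1 is the product of Zbtb17, a protein with zinc fingers and a POZ domain that can bind MYC on DNA and then represses genes that MYC does not activate by itself. The comparisons ask whether MYC targets that make ribosomes differed in tumours whose hepatocytes had lost Miz1 or its POZ domain.

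The Miz1 table holds normalised reads, which are read counts divided by 1 factor per library. The 5 libraries whose reads were recovered held 30151743 to 76122969 reads in genes. The Miz1(POZ) table holds FPKM (fragments per kilobase of transcript, scaled to library size), and its depth is unknown. Zbtb17 stood at 323, 306 and 302 normalised reads in the floxed Miz1 libraries and at 261, 271 and 267 in the Miz1 knockout. The groups did not overlap, as in 3.05% of all genes for that direction (log2 fold change -0.22 ± 0.14, SE, limma adjusted p = 0.9998). The FPKM values of Zbtb17 were 2.03, 2.46 and 1.82 without and 2.55, 2.60 and 1.95 with Cre in the Miz1(POZ) mice. The sources used here do not give the exons that the alleles remove, so these values per gene do not check the deletion. All 14 hepatocyte markers were measured in both tables, with Alb at 1213400 to 4518500 normalised reads and 23093 to 62597 FPKM. The libraries numbered 1 of both Miz1 groups stood apart from the other 4 for some genes. The pericentral hepatocyte gene Cyp2e1, picked after its values were seen, was at 6372 and 7059 normalised reads there and at 57731 to 131470 elsewhere. Alb did not share this, at 4518500 in floxed replicate 1, its highest Miz1 library, and at 2669500 in knockout replicate 1.

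The E-box is the sequence through which MYC and MAX reach their targets, so the promoters of members that carry it are shown first. RefSeq gene starts (GRCm38.p6) gave promoter windows for 26 of the 31 members, 4 of them with several windows. In the 250 bases before the start, CACGTG, which reads the same on both strands, occurred in 5 of these 26 members (19.2%), namely Cdk4, Eif4e, Ldha, Nme1 and Nop2. It occurred in 1854 of 27025 genes with a window (6.86%). The related CACGCG, searched on both strands, was present in 7 of 26 members (26.9%) and in 8.66% of all genes. Median GC content of the windows was 58.8% in members and 52.4% over all windows, and the part of GC content in these shares was not tested. A match describes the letters of the window and no binding was measured. Shown are Cdk4, whose window has 4 E-boxes, Ldha with 2 before 1 of its 2 annotated starts and 0 before the other, and Nop2 with 1, since their windows lie outside annotated exons but for the last base of the Cdk4 window. Capitals mark CACGTG, and each sequence runs 5′ to 3′ on the gene's strand up to its start. The regions are chr10:127063285-127063534 (plus strand) for Cdk4, chr7:46845554-46845803 (plus strand) for Ldha and chr6:125131633-125131882 (plus strand) for Nop2.
Cdk4: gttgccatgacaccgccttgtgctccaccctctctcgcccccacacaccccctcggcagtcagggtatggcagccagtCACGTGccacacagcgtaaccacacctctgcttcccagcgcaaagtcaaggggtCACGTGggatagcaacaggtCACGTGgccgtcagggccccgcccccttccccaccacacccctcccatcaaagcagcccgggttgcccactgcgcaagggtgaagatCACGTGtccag
Ldha: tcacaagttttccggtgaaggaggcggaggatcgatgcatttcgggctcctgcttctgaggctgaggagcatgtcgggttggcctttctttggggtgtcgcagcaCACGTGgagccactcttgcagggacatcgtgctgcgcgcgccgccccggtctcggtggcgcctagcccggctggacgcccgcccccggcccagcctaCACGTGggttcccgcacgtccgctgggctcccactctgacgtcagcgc
Nop2: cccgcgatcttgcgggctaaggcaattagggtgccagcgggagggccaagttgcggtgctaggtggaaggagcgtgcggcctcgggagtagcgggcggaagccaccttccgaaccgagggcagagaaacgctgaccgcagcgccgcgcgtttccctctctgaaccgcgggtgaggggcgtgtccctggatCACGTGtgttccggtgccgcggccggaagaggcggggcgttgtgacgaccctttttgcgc

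A second sequence feature of the members was not used to choose them. In GENCODE M21 (GRCm38), 8 of the 31 members (25.8%) hold 22 snoRNA genes on their own strand, against 279 of 21951 protein-coding genes (1.27%). The hosts are Dkc1, Gnl3, Ncl, Nop56, Nop58, Odc1, Ppan and Wdr43. A box C/D snoRNA guides 2′-O-methylation of ribosomal RNA and is bound by the proteins made from Nop56, Nop58 and Fbl, so 3 are shown, of which those in Nop56 and Nop58 lie inside genes of the very proteins that bind this class. Capitals mark the C box TGATGA near the 5′ end and the D box CTGA near the 3′ end. Snord110 in Nop56 is at chr2:130275506-130275573 (plus strand), Snord11 in Nop58 at chr1:59704790-59704873 (plus strand) and Snord82 in Ncl at chr1:86356261-86356330 (minus strand).
Snord110: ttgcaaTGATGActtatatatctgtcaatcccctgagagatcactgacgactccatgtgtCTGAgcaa
Snord11: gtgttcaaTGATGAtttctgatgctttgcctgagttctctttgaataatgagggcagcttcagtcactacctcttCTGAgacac
Snord82: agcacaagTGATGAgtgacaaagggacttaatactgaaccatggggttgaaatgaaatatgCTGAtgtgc

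The members spanned a wide range of levels, which can be compared between genes in FPKM because that unit is per length. In the floxed Miz1(POZ) tumours the mean level was highest for Ldha, the lactate dehydrogenase subunit of glycolysis, at 440 ± 87.0 FPKM (SD, n = 3), and next for the nucleolar chaperone Npm1 at 113 ± 8.83. Nucleolin (Ncl) followed at 33.6 ± 1.69 FPKM, Nme1 at 30.7 ± 3.79 and Pa2g4 at 29.2 ± 2.88. The lowest level was that of Cad, the multifunctional enzyme that starts pyrimidine synthesis, at 2.03 ± 0.418 FPKM, which put a 216-fold span between the first and the last member. The median member was at 9.33 FPKM, above the median of 7.59 over all tested genes, and 20 of 31 members were above that median. In floxed Miz1 tumours, normalised reads per exonic kilobase also placed Ldha, Npm1 and Ncl at the top, in this order. Nme1 was 4th in FPKM and 26th per exonic kilobase. It shares 12.5% of its exonic bases with the readthrough gene Gm20390. The adjoining Nme2, looked at after its values were seen, was at 11.5 to 23.96 normalised reads in the Miz1 table and at 157 to 218 FPKM in the other table. Its part in the difference was not tested.

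**Figure D1:**
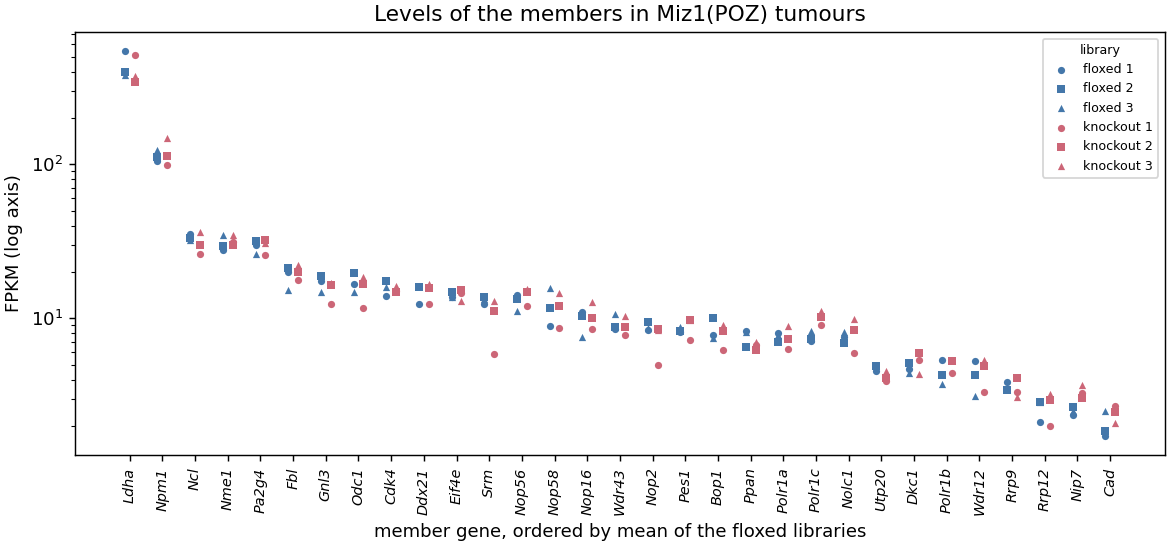
Level of each member in the 6 libraries of the Miz1(POZ) tumours, in FPKM on a log axis, ordered by the mean of the 3 floxed libraries, with blue for floxed, red for knockout and 1 marker shape per replicate number. Levels run from 440 FPKM for Ldha to 2.03 FPKM for Cad in the floxed mean, and the colours mix at nearly every gene.

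Myc itself differed between the tumours of one allele pair in value but not past the test. In floxed Miz1(POZ) tumours Myc was at 9.50, 11.5 and 6.23 FPKM, and in the knockout at 4.38, 2.39 and 6.31. Knockout replicates 1 and 2 were below every floxed library, and knockout replicate 3 was level with floxed replicate 3, so the groups overlapped. The log2 fold change was -0.94 ± 0.31 (SE, 95% interval -1.69 to -0.20), with an unadjusted limma p of 0.0201 and an adjusted p of 0.468, and it stayed between -1.203 and -0.65 when single libraries were left out. In Miz1 tumours Myc was at 251, 150 and 164 normalised reads in floxed and 347, 86.2 and 169 in knockout. Both libraries numbered 1 were high, the groups overlapped, and the log2 fold change was -0.09 ± 0.51 (95% interval -1.33 to 1.14). That interval is wide enough to hold the value seen in the Miz1(POZ) tumours, and the difference between the alleles was not tested because the units differ.

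Max, the obligate dimer partner of MYC, was at 718, 659 and 618 normalised reads in floxed and 704, 622 and 688 in the Miz1 knockout. Its FPKM was 10.8, 10.4 and 11.6 in floxed Miz1(POZ) tumours, set against 9.90, 11.96 and 9.67 in the knockout, and the groups overlapped in both tables. Mnt, a MAX-binding repressor that competes with MYC, was named after its values were seen. It was at 4.99, 4.71 and 5.44 FPKM in floxed tumours and 3.50, 3.07 and 3.84 in the Miz1(POZ) knockout, with no overlap, as in 6.32% of all genes for that direction (log2 fold change -0.44 ± 0.11, limma adjusted p = 0.393). In Miz1 tumours the groups overlapped for Mnt (log2 fold change 0.08 ± 0.17). Mxd4, another MAX-binding repressor and also named after its values were seen, was at 2116, 2128 and 2100 normalised reads in floxed and 1802, 1868 and 1964 in the Miz1 knockout (-0.17 ± 0.11). Its groups did not overlap, as in 3.05% of all genes for that direction. Of the 12 genes of the MYC network, 6 were higher and 6 lower in the Miz1 knockout, and 5 of 10 tested were higher in the Miz1(POZ) knockout, with 0 past the threshold.

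**Figure D2:**
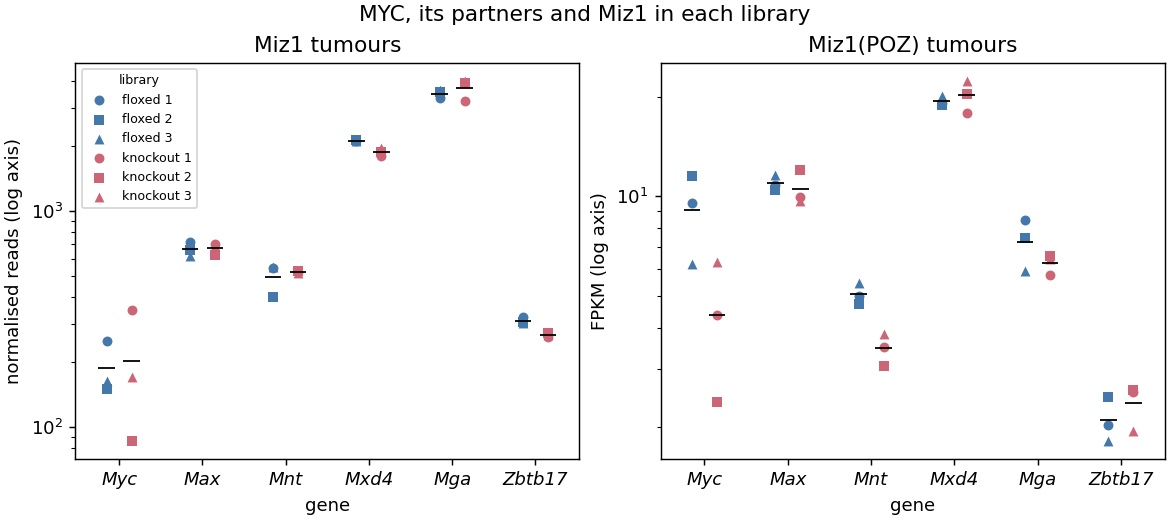
Myc, Max, the MAX-binding Mnt, Mxd4 and Mga, and Zbtb17 (Miz1) in every library, in normalised reads (left) and FPKM (right) on log axes, with blue for floxed, red for knockout, 1 marker shape per replicate number and a black line at each group mean. In the Miz1(POZ) tumours 2 of 3 knockout libraries had less Myc than any floxed library (4.38 and 2.39 against 6.23 to 11.5 FPKM), and Mnt did not overlap.

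Over the 31 members, 15 were higher and 16 lower in the Miz1 knockout, with a median log2 fold change of -0.0037 against 0.012 over all 21751 genes tested. For the Miz1(POZ) knockout 17 were higher and 14 lower, with a median of 0.011 against 0.029 over 11201 genes. A log2 fold change above 0 was found in 52.1% of all genes in the first comparison and 55.7% in the second, beside 48.4% and 54.8% of the members. No member passed an adjusted p of 0.05 in limma in either comparison, where the background of genes called was 0% in both. The groups overlapped for all 31 members in the Miz1 comparison, where 5.62% of all genes did not (2.57% higher and 3.05% lower in the knockout). In the other comparison 2 members did not overlap, Polr1c and Nip7, both higher, beside 15% of all genes in either direction. At an unadjusted limma p under 0.05 there were 0 members in the Miz1 comparison (background 1.67%, 364 genes) and 2 in the Miz1(POZ) comparison (background 8.71%, 976 genes), Polr1c and Nip7. edgeR on the recovered reads of the 5 Miz1 libraries also called 0 genes and had 253 at an unadjusted p under 0.05. The counts of members higher moved with single libraries, and the Miz1(POZ) count was 10 without knockout replicate 3 and 13 or 14 under other scalings. A sign in these comparisons is therefore a description of 3 libraries against 3.

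The size of difference that these data allow, on the log2(value + 1) scale, is given by the 95% intervals of limma. That scale understates fold changes of low genes, such as Cad at 2.03 FPKM in floxed Miz1(POZ) tumours. For such genes the intervals bound the expression itself less tightly than the folds below say. In the Miz1 comparison the intervals of all 31 members lay inside a 2-fold difference either way, and 19 lay inside 1.5-fold, beside 48.1% and 22.7% of all genes. For Miz1(POZ), 30 members lay inside 2-fold and 26 inside 1.5-fold, beside 87.4% and 57.7% of all genes. The exception was Srm, spermidine synthase, whose lower bound was -1.04 on the log2 scale. The standard errors of members had a median of 0.175 in the first comparison and 0.146 in the second, where all genes had 0.336 and 0.158.

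**Figure D3:**
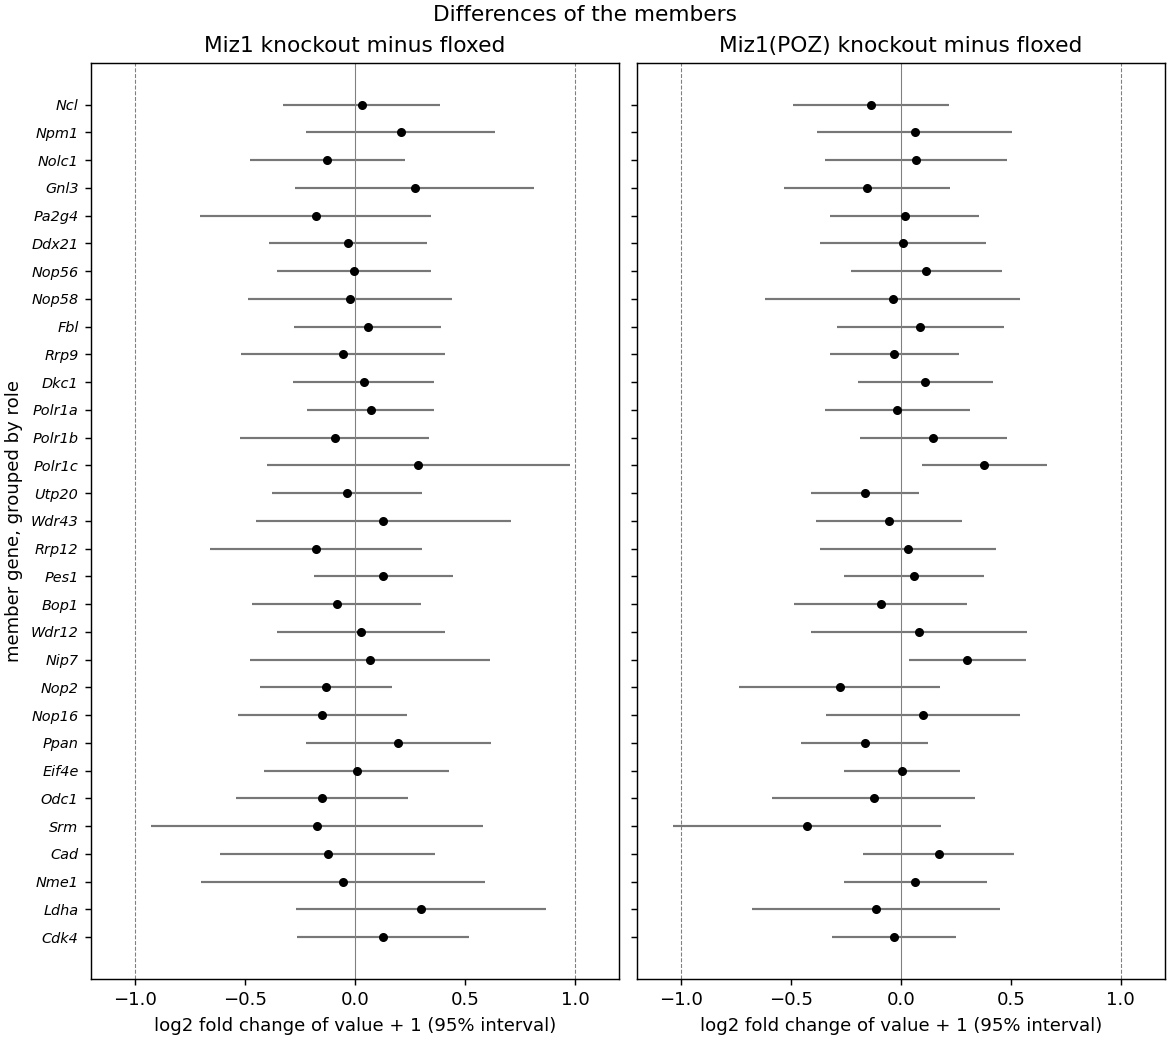
Log2 fold change of each member, knockout minus floxed, on the log2(value + 1) scale, with its 95% limma interval, in the Miz1 (left) and Miz1(POZ) tumours (right), where dashed lines mark 2-fold either way. All 31 intervals on the left and 30 of 31 on the right stay inside the dashed lines, and only Polr1c and Nip7 on the right have intervals that leave out 0.

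The nucleolar scaffold and growth proteins gave 3 of 6 members higher in the Miz1 knockout and 4 of 6 in the Miz1(POZ) knockout, where Pa2g4 and Ddx21 took the other sign under 3 other scalings and Npm1 under quantile normalisation. Ncl, the nucleolin of the nucleolar fibrillar region, was at 7469, 7549 and 6558 normalised reads in floxed Miz1 tumours and 8204, 6669 and 7197 in knockout (log2 fold change 0.03 ± 0.15). It was at 35.4, 33.3 and 32.1 FPKM in floxed Miz1(POZ) tumours and 26.2, 29.7 and 36.4 in knockout (-0.13 ± 0.15). The groups overlapped in both tables.
Npm1, the nucleophosmin that carries ribosomal particles, was at 5432, 3894 and 4253 normalised reads in floxed and 5770, 4558 and 5273 in the Miz1 knockout (0.21 ± 0.18, limma adjusted p = 0.9998). Within each number the Miz1 knockout was the higher library for Npm1, as for Polr1c and Pes1, and the lower one for Nolc1, Nop2 and Odc1. The labels pair no libraries, and the share of all genes with such a pattern was not taken. For Npm1 the floxed library numbered 1 was above 2 of the 3 knockout ones. Npm1 in Miz1(POZ) tumours was at 106, 112 and 123 FPKM without Cre and 98.7, 114 and 148 in knockout (0.06 ± 0.19). Npm1 has 4 pseudogenes that match its transcript at 95% identity or more over at least 200 bases, and reads may have been split among them. By the same measure Odc1 has 6 such pseudogenes, Nop56 and Ldha 4 each, Pes1 2, and Fbl, Ddx21, Wdr12 and Eif4e 1 each, so the levels of these genes are uncertain to that extent.
Gnl3 (nucleostemin), a GTPase that shuttles in and out of the nucleolus, was at 1154, 766 and 919 normalised reads in floxed and 1374, 1169 and 892 in the Miz1 knockout (0.27 ± 0.23, limma adjusted p = 0.9998). It was at 17.5, 18.8 and 14.8 FPKM in floxed tumours and 12.4, 16.5 and 16.97 in the Miz1(POZ) knockout (-0.15 ± 0.16), and the groups overlapped in both tables. Nolc1, a chaperone of snoRNPs, had log2 fold changes of -0.13 and 0.07 in the Miz1 and Miz1(POZ) knockouts. The growth regulator Pa2g4 had -0.18 and 0.02, with Miz1 knockout replicate 1 alone at 1066 and the other 5 libraries at 1575 to 1817 normalised reads. The RNA helicase Ddx21 had -0.03 and 0.01.

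The snoRNP core proteins lay closest to 0 in the Miz1 comparison among the 6 role classes, with all 5 log2 fold changes between -0.06 and 0.06. Nop56, a scaffold of the box C/D snoRNP, was at 753, 765 and 615 normalised reads in floxed and 760, 692 and 669 in the Miz1 knockout (0.00 ± 0.15). It was at 14.2, 13.3 and 11.2 FPKM in floxed tumours and 11.97, 14.7 and 15.6 in the Miz1(POZ) knockout (0.12 ± 0.14). The groups overlapped in both tables.
Fbl, the fibrillarin that transfers the methyl group, was at 643, 649 and 550 normalised reads in floxed and 690, 625 and 600 in the Miz1 knockout (0.06 ± 0.14). In FPKM it was at 20.0, 21.1 and 15.3 in floxed and 17.6, 20.1 and 22.2 in the Miz1(POZ) knockout (0.09 ± 0.16). Again no group stood clear of the other.
Nop58, the partner of Nop56, had log2 fold changes of -0.02 in the Miz1 and -0.04 in the Miz1(POZ) knockout, and among the floxed Miz1(POZ) libraries it had the largest coefficient of variation of all members (28.5%). Rrp9, which binds the U3 snoRNA, had -0.06 and -0.03. Dkc1, the pseudouridine synthase of box H/ACA snoRNPs, had 0.04 and 0.11.

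RNA polymerase I subunits gave one of the 2 members that did not overlap. Polr1c, a subunit shared by RNA polymerases I and III, was at 7.08, 7.37 and 8.26 FPKM in floxed tumours and 9.06, 10.2 and 11.2 in the Miz1(POZ) knockout. Every knockout library was above every floxed one, as in 8.68% of all genes tested for that direction. The log2 fold change was 0.38 ± 0.12 (95% interval 0.10 to 0.66, limma adjusted p = 0.450), and it was between 0.31 and 0.45 when single libraries were left out.
In Miz1 tumours Polr1c was at 427, 328 and 336 normalised reads in floxed and 667, 336 and 383 in knockout (0.29 ± 0.29). The log2 fold change was -0.0098 without knockout replicate 1 and 0.11 without either library numbered 1. Within each number the knockout library was the higher one, although the labels pair no libraries and Nolc1, Nop2 and Odc1 went the other way. Polr1b, the second largest subunit of RNA polymerase I, was at 656, 744 and 587 normalised reads in floxed and 539, 584 and 749 in the Miz1 knockout (-0.09 ± 0.18).
Its FPKM was 5.32, 4.26 and 3.73 in floxed and 4.40, 5.26 and 5.33 in the Miz1(POZ) knockout (0.15 ± 0.14), so that floxed replicate 1 was level with the highest knockout libraries. Polr1a, the largest subunit, had log2 fold changes of 0.07 ± 0.12 and -0.02 ± 0.14.

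Among the small subunit processing factors 1 of 3 was higher in each knockout. Utp20, a scaffold protein of the small subunit processome, was at 4.54, 4.87 and 4.97 FPKM in floxed tumours and 3.89, 4.11 and 4.54 in the Miz1(POZ) knockout (-0.16 ± 0.10, limma adjusted p = 0.708). The highest knockout library was level with the lowest floxed one. In Miz1 tumours it was at 1854, 1525 and 1596 normalised reads in floxed and 1796, 1548 and 1501 in knockout (-0.04 ± 0.14). Wdr43, a processome protein, had log2 fold changes of 0.13 in the Miz1 and -0.05 in the Miz1(POZ) knockout, and Miz1 knockout replicate 1 was its highest Miz1 library at 1640 normalised reads. Rrp12, an export and maturation factor of the pre-ribosome, had -0.18 and 0.03.

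The large subunit assembly factors had 4 of 7 members higher in each knockout. Nip7, which acts in processing of the precursor RNA, was at 2.35, 2.65 and 2.50 FPKM in floxed tumours and 3.26, 3.03 and 3.68 in the Miz1(POZ) knockout. It was the second member whose groups did not overlap, with a log2 fold change of 0.30 ± 0.11 (95% interval 0.04 to 0.57, limma adjusted p = 0.522). In the Miz1 table it was at 417, 256 and 287 normalised reads in floxed and 364, 338 and 286 in knockout (0.07 ± 0.23), and there the groups overlapped.
Pes1, a subunit of the complex with Bop1 and Wdr12 that matures the large subunit RNA, was at 796, 683 and 709 normalised reads in floxed and 830, 817 and 743 in the Miz1 knockout (0.13 ± 0.13). It was at 8.15, 8.31 and 8.83 FPKM in floxed tumours and 7.24, 9.76 and 9.71 in the Miz1(POZ) knockout (0.06 ± 0.14). The 3 subunits of the complex did not share a direction in either comparison, since Bop1 had -0.08 and -0.09 and Wdr12 had 0.03 and 0.08.
Ppan was at 343, 335 and 382 normalised reads in floxed and 478, 409 and 339 in the Miz1 knockout (0.20 ± 0.18, limma adjusted p = 0.9998). Its FPKM was 8.22, 6.47 and 8.10 in floxed and 6.74, 6.22 and 6.97 in the Miz1(POZ) knockout (-0.16 ± 0.12), and it overlapped in both. Nop2, a methyltransferase of the large subunit RNA whose E-box window is printed above, had -0.13 and -0.28, and the second value drew on Miz1(POZ) knockout replicate 1 at 4.98 FPKM where the other 5 libraries were at 8.34 to 9.53. Nop16 had -0.15 and 0.10.

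The remaining 7 members serve translation, metabolism and the cell cycle, and 3 of 7 were higher in each knockout. Ldha, with 2 E-boxes before 1 of its 2 annotated starts, had the largest positive log2 fold change of the members in the Miz1 comparison. It was at 21694, 19802 and 20751 normalised reads in floxed and 18675, 30419 and 29364 in the Miz1 knockout (0.30 ± 0.24, limma adjusted p = 0.9998). Knockout replicates 2 and 3 were above all floxed libraries and knockout replicate 1 was below them, and without either library numbered 1, an alternative added after seeing the data, the log2 fold change was 0.56 (limma adjusted p = 0.799). In Miz1(POZ) tumours Ldha was at 540, 398 and 382 FPKM in floxed tumours and 509, 340 and 376 in knockout (-0.11 ± 0.24), with both libraries numbered 1 the highest.
Srm, which makes spermidine, was at 12.3, 13.8 and 13.3 FPKM in floxed tumours and 5.86, 11.2 and 12.9 in the Miz1(POZ) knockout (-0.43 ± 0.26, limma adjusted p = 0.694). The low library was knockout replicate 1, and the log2 fold change was -0.12 without it. In Miz1 tumours Srm was at 619, 322 and 367 normalised reads in floxed and 501, 340 and 300 in knockout (-0.17 ± 0.31), again with both libraries numbered 1 high.
Odc1, ornithine decarboxylase and the step before Srm in polyamine synthesis, was at 1450, 1314 and 1139 normalised reads in floxed and 1368, 1074 and 1078 in the Miz1 knockout (-0.15 ± 0.16). It was at 16.6, 19.7 and 14.7 FPKM in floxed tumours and 11.7, 16.8 and 18.7 in the Miz1(POZ) knockout (-0.12 ± 0.19). Odc1 was lower in mean in both knockouts, and its groups overlapped in both.
Cad was at 817, 597 and 642 normalised reads in floxed and 670, 722 and 500 in the Miz1 knockout (-0.12 ± 0.20). Its FPKM was 1.73, 1.86 and 2.51 in floxed and 2.68, 2.46 and 2.08 in the Miz1(POZ) knockout (0.17 ± 0.15), with overlap in both. Eif4e, the cap-binding translation factor, had log2 fold changes of 0.01 and 0.00. Nme1, a nucleoside diphosphate kinase, had -0.05 and 0.07. Cdk4, the cyclin D kinase with 4 E-boxes in its window, had 0.13 and -0.03, and 19.7% of its exonic bases are shared with Tspan31 on the opposite strand, whose reads cannot be told apart from its own without strand.

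Setting both comparisons side by side, 8 members were higher in both knockouts (Npm1, Fbl, Dkc1, Polr1c, Pes1, Wdr12, Nip7 and Eif4e) and 7 were lower in both (Nop58, Rrp9, Utp20, Bop1, Nop2, Odc1 and Srm). Another 7 were higher in the Miz1 and lower in the Miz1(POZ) knockout, and 9 were the other way round. Of these members with a shared direction, only Nop2 kept its sign under every alternative in both comparisons, and the others took the opposite sign in at least 1 fit. The 2 tables share no library.

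**Figure D4:**
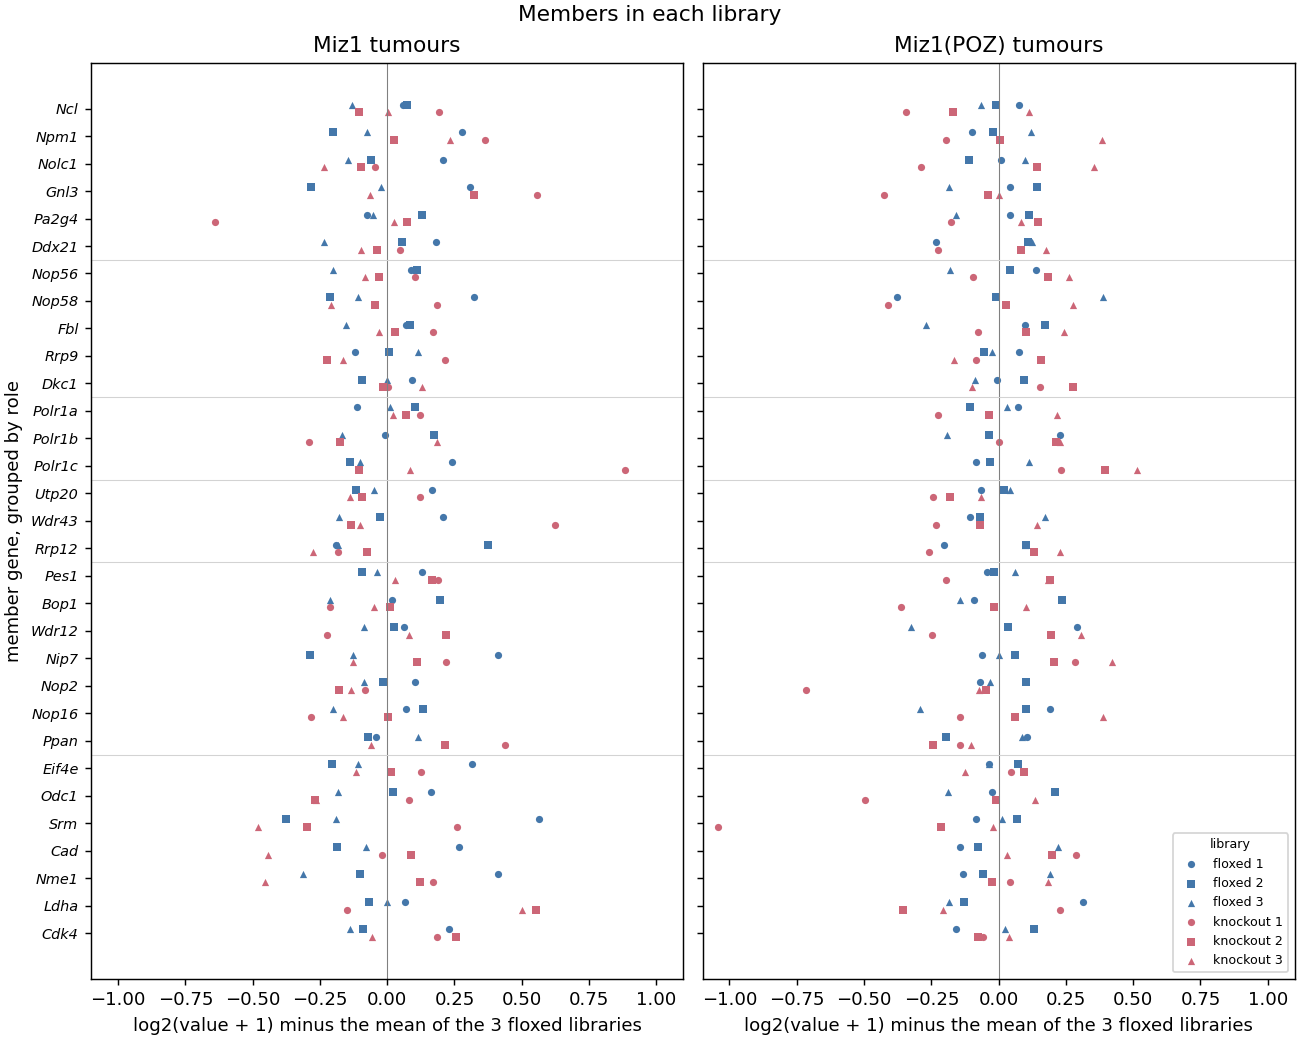
Each member in each library as log2(value + 1) minus the mean of the 3 floxed libraries of the same table, for Miz1 tumours (left) and Miz1(POZ) tumours (right), with blue for floxed, red for knockout, 1 marker shape per replicate number and grey lines between role classes. Red and blue mix for all 31 members on the left and for 29 on the right, where Polr1c and Nip7 are the exceptions, and on the left the circles (replicate 1) of both colours lie to the right for most members.

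The members also varied between libraries of the same group, which was not tested. The counts below were not taken over all genes, so a shift of a whole library cannot be told apart from a trait of the members. In the Miz1 table, floxed replicate 1 was above the 6-library mean for 26 of 31 members and knockout replicate 1 for 22, and between them they held the highest value of 21 members (11 and 10). Floxed replicate 3 was above the mean for 3 members and knockout replicate 3 for 6. The shift was small, with a median over members of 0.14 and 0.12 on the log2 scale in the 2 libraries numbered 1 and -0.11 to 0.00 in the others. In the Miz1(POZ) table, knockout replicate 1 was above the mean for 7 members and held the lowest value of 15, while knockout replicate 3 was above it for 25 and held the highest value of 13. The 3 floxed Miz1(POZ) libraries were each above it for 16.

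Some other lists were also high or low in both libraries numbered 1. The 22 proliferation genes had medians of 0.94 and 1.41 (log2, against each gene's mean) in the floxed and knockout libraries numbered 1 of the Miz1 tumours, and -1.09 to -0.18 in the other 4. Their summed level was 1850 to 5140 normalised reads in floxed and 2686 to 6808 in knockout. The 12 macrophage and monocyte markers, of which 11 were higher in the Miz1 knockout and 0 were at 0 in all libraries, summed to 5345 to 14390 normalised reads in floxed and 8745 to 22040 in knockout. The 14 hepatocyte markers had medians of -0.45 and -0.70 in the libraries numbered 1, and 10 of 14 were lower in the Miz1 knockout. Yet their summed level was highest in floxed replicate 1, at 5478400 normalised reads, and was 3418100 in knockout replicate 1. Other lists went opposite ways in the floxed and the knockout library numbered 1, with medians of -1.01 and 2.24 for the cholangiocyte, -0.31 and 0.99 for the stellate cell and fibroblast, and -0.095 and 0.83 for the T and NK cell markers. In the Miz1(POZ) tumours the proliferation genes summed to 32.49 to 36.45 FPKM in floxed and 40.24 to 46 in knockout, with no overlap. There 7 of the 9 proliferation genes tested were higher in the knockout (background 55.7%), and the list medians of the groups overlapped. In bulk tumours fewer cells of a type and less RNA per cell cannot be told apart. The part of proliferation and of cell composition in the members' levels was not tested. Without either library numbered 1, the members' median log2 fold change was 0.012 and 17 of 31 were higher in the Miz1 knockout, with 0 called.

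**Figure D5:**
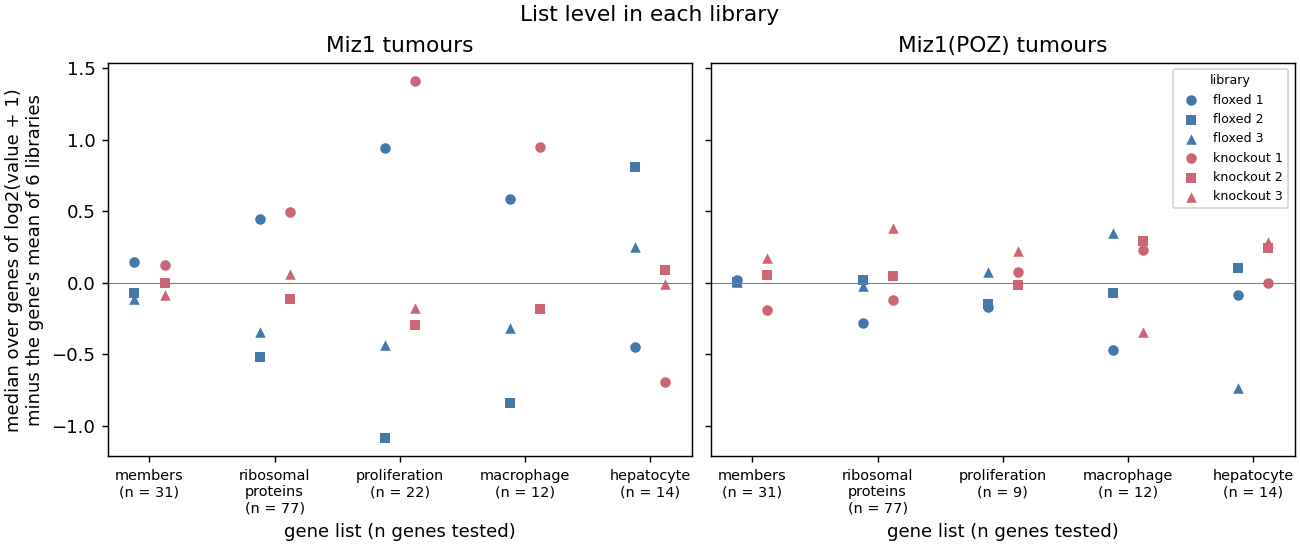
Median over the genes of a list of log2(value + 1) minus each gene's mean over the 6 libraries, for the members, the cytosolic ribosomal proteins, proliferation genes, macrophage markers and hepatocyte markers, in Miz1 tumours (left) and Miz1(POZ) tumours (right), with blue for floxed, red for knockout and 1 marker shape per replicate number. Member medians stay between -0.19 and 0.17, whereas proliferation medians in the Miz1 tumours run from -1.09 to 1.41 with both libraries numbered 1 at the top.

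The RNA levels of the 77 cytosolic ribosomal protein genes were read as well, while the amount of ribosomes was not measured. In the Miz1 knockout 76 of 77 were higher (background 52.1%), with a median log2 fold change of 0.30, and 0 were called by limma. The Miz1(POZ) knockout had 72 of 77 higher (background 55.7%), with a median of 0.18, and 0 were called. In the Miz1 tumours the list medians (log2, against each gene's mean) of floxed replicates 1 to 3 were 0.44, -0.52 and -0.35. Those of knockout replicates 1 to 3 were 0.49, -0.12 and 0.06. The knockout library was the higher one within each number, although the labels pair no libraries, and the groups overlapped. When single libraries of the Miz1 tumours were left out, 68 to 76 genes were higher and the median log2 fold change ranged from 0.10 to 0.60. Without either library numbered 1, it was 0.41 with 76 of 77 higher. Knockout replicate 3 of the Miz1(POZ) tumours held the highest value of 73 of the 77 genes, and without it 55 were higher with a median of 0.05. Ribosomal protein genes moved together across these libraries and have many processed pseudogenes, so the 77 are not independent of each other. In the Miz1(POZ) tumours 5 genes went the other way, the lowest with a log2 fold change of -1.465. Rpl22, a protein of the large subunit, was 1 of the 5. It was at 24.4, 24.1 and 20.6 FPKM in floxed tumours and 13.98, 16.5 and 19.1 in knockout (-0.46 ± 0.15, limma adjusted p = 0.451). Its groups did not overlap, as for 6.32% of all genes in that direction. Rps21, the other gene of smallest p there, had 0.48 ± 0.23 (limma adjusted p = 0.623) and overlapped. In the Miz1 comparison the smallest p values belonged to Rpl10 (0.47 ± 0.33) and Rpl5 (0.32 ± 0.24), and both overlapped.

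The rest of the ribosome biogenesis pathway was read from further lists, none of whose genes passed the test. The genes named from each list are those of smallest p. Of all genes tested, 52.1% were higher in the Miz1 and 55.7% in the Miz1(POZ) knockout. Among 13 other RNA polymerase I factors, 7 were higher in the Miz1 knockout and 8 of 11 tested in the Miz1(POZ) knockout. Cd3eap, a polymerase I subunit, was at 167, 155 and 175 normalised reads in floxed and 194, 188 and 202 in the Miz1 knockout (0.23 ± 0.16, limma adjusted p = 0.9998). Its groups did not overlap, as in 2.57% of all genes for that direction in the Miz1 comparison. The terminator Ttf1 had -0.23 ± 0.16 there and overlapped. In the Miz1(POZ) comparison the smallest p values of this list were those of the subunit gene Znrd1 (0.31 ± 0.16) and the initiation factor gene Taf1b (0.30 ± 0.20), and both overlapped.
Of 30 other genes of the small subunit processome, 17 were higher in the Miz1 and 20 in the Miz1(POZ) knockout. Nol6 was at 847, 950 and 798 normalised reads in floxed and 738, 771 and 650 in the Miz1 knockout (-0.26 ± 0.14, limma adjusted p = 0.9998). Rrp7a was at 8.92, 9.79 and 7.68 FPKM in floxed tumours and 11.3, 13.4 and 11.8 in the Miz1(POZ) knockout (0.43 ± 0.13, limma adjusted p = 0.429). Neither overlapped between its groups. The shares of all genes for these directions were 3.05% in the Miz1 and 8.68% in the Miz1(POZ) comparison. Nol10 had -0.19 ± 0.15 in the Miz1 comparison, also lower with no overlap. Emg1 had 0.31 ± 0.15 in the Miz1(POZ) comparison and overlapped.
Of 31 other large subunit assembly genes, 12 were higher in the Miz1 knockout and 15 in the Miz1(POZ) knockout, with medians of -0.03 and -0.0069. The smallest p values there belonged to Tex10 (0.19 ± 0.21) and Gnl3l (0.19 ± 0.22) in the first and Nsa2 (0.21 ± 0.11) and Brix1 (0.23 ± 0.12) in the second. Of these only Nsa2 did not overlap, as in 8.68% of all genes for that direction in the Miz1(POZ) comparison.

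The other snoRNP proteins and assembly factors were higher for 7 of 10 in the Miz1 (background 52.1%) and 9 of 10 in the Miz1(POZ) knockout (background 55.7%), with medians of 0.04 and 0.16. Nhp2l1, which binds the kink-turn of box C/D snoRNAs such as those printed above, was at 14.2, 14.8 and 15.8 FPKM in floxed tumours and 18.1, 20.2 and 18.8 in the Miz1(POZ) knockout (0.33 ± 0.11, limma adjusted p = 0.467). Ruvbl2, an ATPase that helps to assemble snoRNPs, was at 4.23, 3.60 and 4.06 FPKM in floxed tumours and 4.74, 5.38 and 4.84 in knockout (0.27 ± 0.11, limma adjusted p = 0.543). For both genes the groups did not overlap, as in 8.68% of all genes for that direction, and neither passed the test. In the Miz1 comparison the box H/ACA proteins Nop10 and Nhp2 had 0.34 ± 0.21 and 0.38 ± 0.25, and both overlapped.

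Among 18 other translation factors, 13 were higher in the Miz1 (background 52.1%) and 12 in the Miz1(POZ) knockout (background 55.7%). Eif4ebp1, the inhibitor of Eif4e, had 0.45 ± 0.32 in the Miz1 comparison and Eef1b2 had 0.22 ± 0.20. In the Miz1(POZ) comparison Eef1e1 had 0.21 ± 0.14 and Eif4g1 had -0.16 ± 0.14. Of 19 genes of nucleotide and polyamine synthesis, 10 were higher in the Miz1 and 14 in the Miz1(POZ) knockout, beside the same backgrounds. Impdh2 is the rate-limiting enzyme of guanine nucleotide synthesis. It was at 14.2, 15.6 and 14.1 FPKM in floxed tumours and 18.8, 21.5 and 23.6 in the Miz1(POZ) knockout (0.51 ± 0.12, limma adjusted p = 0.372). Its groups did not overlap, as in 8.68% of all genes for that direction in the Miz1(POZ) comparison. Azin1, an inhibitor of antizyme, which itself holds back Odc1, had -0.35 ± 0.19 there and overlapped. In the Miz1 comparison Ppat and Shmt2 had -0.30 ± 0.15 and -0.36 ± 0.21, and both overlapped.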

How the data were processed

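RNA from flash-frozen tumours was made into TruSeq libraries (12 samples, 4 groups of 3), per the labels. The authors' tools, per the submitters' processing notes and with no roles stated, were DESeq2 1.16.1, RSEM 1.1.17, Bowtie2 2.2.6, Trimmomatic 0.36, edgeR 3.18.1 and bcl2fastq 2.19.0, with the genome mm10. The sources used here do not give whether counting used strand.

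Values of the deposited Miz1 table are a signal, each gene's read count over a factor of its library, and 100% of values above 0 were whole multiples of 1 step (tolerance 0.01) in all 6 libraries. Reads were recovered for 5 of them, leaving out floxed replicate 3 although it met the same measure. In these 5 libraries the members had 126 (Rrp9) to 61190 (Ldha) reads. Its 4 entries that name no gene (38.0% to 50.8% of column sums) were left out. The deposited Miz1(POZ) table holds FPKM, which RPKM cannot be told apart from. Since neither table holds raw counts, the planned test for normalised values replaced the one for counts.

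Each knockout was compared with its own floxed group by limma 3.58.1 under R 4.3.3, with moderated variances that follow a trend with level, on log2(value + 1). Genes needed a mean of at least 1 to enter, with Benjamini-Hochberg adjustment over all of them and a threshold of 0.05. Fold changes on this scale understate those of low genes. The ± after a log2 fold change is limma's SE. edgeR 4.0.16 (quasi-likelihood) on recovered reads was an alternative, with other pseudocounts, filters, scalings, a replicate block and left-out libraries. The fits were tested on simulated data. Deviations from the group means had correlations over genes of 0.489, 0.339 and 0.118 between same-numbered Miz1 libraries. Between unlike numbers they ran from -0.427 to 0.282, the last for floxed replicate 2 with knockout replicate 3. The labels give no pairing, and these values do not settle one for numbers 2 and 3. The block was an alternative only, and with 0 genes called it changed no call.

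Promoters are from RefSeq (GRCm38.p6), genes and snoRNAs from GENCODE M21; transcript copies were searched with blastn 2.17.0. The members and lists were chosen with earlier results of these data known. All 31 members are named; values per library are given for 9 set members, the 4 of smallest p in each table, Myc, Max and Zbtb17, and 2 genes of smallest p per further list are named, so most of the latter were chosen for a small p. Figures used matplotlib 3.10.9.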

Additional observations from a re-analysis of the deposited data

How the results depend on the processing

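No member passed the limma threshold under any alternative, over 496 values of the members in the Miz1 and 449 in the Miz1(POZ) comparison (smallest adjusted p 0.7035 and 0.3123). The number of all genes called in the Miz1(POZ) comparison was 0, but 1 with a mean of at least 10 and 0 to 4 when single libraries were left out, with 2 without floxed replicate 2 and 4 without floxed replicate 3. The Miz1(POZ) members higher numbered 8 with a mean of at least 10, where fewer members were tested, and 10 to 21 when single libraries were left out. The replicate block cannot change a log2 fold change here, because each number has a library in both groups. Its 15 and 17 members higher were therefore fixed in advance, and it called 0 genes. Same-numbered Miz1(POZ) libraries had correlations of deviations of -0.093, 0.230 and 0.175. Those between unlike numbers ran from -0.325 to 0.249, and the numbers were not taken to pair these libraries. The block raised the Miz1 genes at an unadjusted limma p under 0.05 from 364 to 1150. The libraries, 3 a group, limit the size of difference that can be seen, and the depth of the Miz1(POZ) table is unknown.

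The sign was kept under every alternative by 10 members in the Miz1 comparison (Cdk4, Gnl3, Ldha, Nolc1, Nop16, Nop2, Npm1, Odc1, Pes1 and Ppan) and by 11 in the other (Cad, Dkc1, Nip7, Nme1, Nop2, Nop56, Polr1b, Polr1c, Ppan, Srm and Utp20). The replicate block, robust moderation and the other filters cannot change a log2 fold change, so these counts rest on the remaining alternatives. The cause of the sign changes below was not tested. The edgeR fit also left out Miz1 floxed replicate 3, so its method and that library cannot be told apart. In limma without floxed replicate 3, 12 members were higher in the Miz1 knockout, as in edgeR, and Ncl was at -0.035. In the Miz1 comparison, edgeR on recovered reads gave log2 fold changes of the other sign for Ncl (-0.022), Fbl (-0.0097), Rrp9 (0.020), Nip7 (-0.022), Eif4e (-0.058), Max (-0.028) and Myc (0.012). Without either library numbered 1, added after seeing the data, so did Ncl (-0.022), Pa2g4 (0.012), Ddx21 (0.023), Nop58 (0.033), Polr1a (-0.0085), Polr1b (0.0015), Wdr43 (-0.014) and Nme1 (0.040). When single libraries were left out, the log2 fold change spanned -0.051 to 0.098 for Ncl, -0.31 to 0.050 for Pa2g4, -0.15 to 0.061 for Ddx21, -0.10 to 0.052 for Nop56, -0.13 to 0.14 for Nop58, -0.020 to 0.10 for Fbl, -0.19 to 0.027 for Rrp9 and -0.0075 to 0.086 for Dkc1. It spanned -0.23 to 0.0050 for Polr1b, -0.0098 to 0.48 for Polr1c, -0.12 to 0.045 for Utp20, -0.12 to 0.26 for Wdr43, -0.27 to 0.0099 for Rrp12, -0.19 to 0.015 for Bop1, -0.070 to 0.15 for Wdr12 and -0.077 to 0.27 for Nip7. The spans were -0.096 to 0.16 for Eif4e, -0.39 to 0.11 for Srm, -0.23 to 0.034 for Cad, -0.21 to 0.15 for Nme1, -0.027 to 0.36 for Gnl3l, -0.037 to 0.072 for Max, -0.60 to 0.40 for Myc and -0.018 to 0.34 for Tex10.

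In the Miz1(POZ) comparison, TMM and median-ratio scaling each gave the other sign for Pa2g4 (-0.012), Ddx21 (-0.018) and Eif4e (-0.024), and quantile normalisation for Npm1 (-0.024), Pa2g4 (-0.0024), Ddx21 (-0.0015) and Eif4e (-0.00052). Without either library numbered 1, so did Ncl (0.0088), Gnl3 (0.0022), Rrp9 (0.036), Polr1a (0.13), Eif4e (-0.034) and Odc1 (0.051). When single libraries were left out, the spans were -0.095 to 0.19 for Npm1, -0.073 to 0.25 for Nolc1, -0.061 to 0.11 for Pa2g4, -0.10 to 0.13 for Ddx21, -0.22 to 0.16 for Nop58, -0.046 to 0.18 for Fbl, -0.12 to 0.038 for Rrp9, -0.13 to 0.090 for Polr1a and -0.15 to 0.037 for Wdr43. They were -0.068 to 0.18 for Rrp12, -0.0048 to 0.19 for Pes1, -0.19 to 0.043 for Bop1, -0.077 to 0.25 for Wdr12, -0.043 to 0.23 for Nop16, -0.040 to 0.069 for Eif4e, -0.25 to 0.063 for Odc1, -0.28 to 0.045 for Ldha and -0.11 to 0.035 for Cdk4.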
